A study of Arabidopsis thaliana with 6 samples.

Results

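The genes described here are 10 aquaporin genes of Arabidopsis thaliana, picked by their gene identifiers from the 23640 features of a table of read counts. They are 4 PIP1 genes, 3 PIP2 genes and 3 TIP genes. RNA had been sequenced from whole seedlings grown in vitro for 14 days, in 3 libraries of the mutant atrx-1 and 3 libraries of wild-type Col. ATRX is a chromatin remodeler of the SNF2 type, known in animals and plants for its part in placing the histone variant H3.3. The mutant group stands for a single allele, and the labels give no treatment, no other allele and no number of plants per library. They also do not say that replicates came from separate cultures, so that every p-value measures the spread between these libraries, which may be technical.

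Aquaporins are membrane channels that let water, and in some cases small uncharged solutes, cross a lipid bilayer. PIP proteins lie in the plasma membrane. PIP2 proteins form active water channels on their own, while PIP1 proteins, as shown in maize, depend on PIP2 partners to reach the plasma membrane. TIP proteins lie in the membrane of the vacuole, where they let water pass between vacuole and cytosol. In Arabidopsis both groups are abundant in root and leaf membranes and take part in root water uptake, leaf water flow and cell expansion.

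The pore of an aquaporin is lined by a pair of short loops that each carry asparagine, proline and alanine (NPA). All 10 genes encoded 2 such motifs in the RefSeq annotation of TAIR10.1, read in frame on the coding strand. The window of 30 nt around the first motif is shown for each. All members encode this motif, though the bases of the windows differ between them, and the second motif is not shown. The 3 NPA codons are in capitals, coordinates are those of TAIR10.1, and each window is written 5′ to 3′ on the coding strand. The window of PIP2;3, a close relative that is not among the 10, is added because it bears on how reads of PIP2;2 could be assigned.
PIP1;1, chr3:22734250-22734279, plus strand: tggacacatcAACCCAGCGgttacttttgg
PIP1;2, chr2:18911004-18911033, plus strand: tggacacatcAACCCAGCGgttacgttcgg
PIP1;3, chr1:226661-226690, minus strand: tgggcacataAACCCAGCGgtgacatttgg
PIP1;5, chr4:12221397-12221426, plus strand: aggacatattAATCCGGCGgtgacttttgg
PIP2;1, chr3:19804649-19804678, minus strand: tggtcacattAACCCAGCGgtgacatttgg
PIP2;2, chr2:15614339-15614368, minus strand: tggtcacataAACCCTGCGgtgacgtttgg
PIP2;3, chr2:15618202-15618231, plus strand: tggtcacataAACCCTGCGgtgacgtttgg
PIP2;7, chr4:16709051-16709080, plus strand: tggtcacattAACCCAGCTgtgactttcgg
TIP1;1, chr2:15445732-15445761, plus strand: tggacacgttAACCCTGCCgtcactttcgg
TIP1;2, chr3:9723429-9723458, minus strand: tggccacgttAACCCTGCCgttaccttcgg
TIP2;1, chr3:5505873-5505902, plus strand: tggccatgtgAACCCAGCCgtcacttttgg

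The first motif lay in exon 2 of the 7 PIP genes and of the TIP2 gene, and in exon 1 of both TIP1 genes. It was written with 6 different sets of codons, of which AACCCAGCG was shared by 4 members, all of them PIP genes. The windows of PIP2;2 and PIP2;3 were identical over all 30 nt. The PIP genes had 4 exons and coding sequences of 843 to 864 nt. Both TIP1 genes had 2 exons and the TIP2 gene had 3, and the coding sequences of the TIP genes spanned 753 to 762 nt.

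Coding sequences were 79.5% to 87.6% identical within PIP1, 71.9% to 85.8% within PIP2 and 81.1% between the TIP1 genes. They were 66.3% to 68.8% identical between PIP1 and PIP2 genes, and 49.2% to 52.9% between PIP and TIP genes. Similar as they are, 9 of the 10 transcripts had no stretch of 50 nt in common with another aquaporin transcript. PIP2;2 was the exception, since 22% of its 50-nt stretches also occurred in PIP2;3, and their coding sequences were 94.8% identical. How reads were split between this pair is therefore uncertain. The span of TIP2;1 also overlapped that of PnsB3 by 120 nt, and PnsB3 had 707 counts over all 6 libraries, against 10023 for the aquaporin gene. Whether the counting used strand is not stated in the labels or the file.

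Library totals ran from 936243 to 14001726 counts, of which 371797 to 5635498 per library came from nuclear genes. The shallowest was wild-type library 2. ATRX itself averaged 1.29 ± 0.598 CPM in atrx-1 and 5.38 ± 0.529 CPM in wild type (SD, n = 3 each), where CPM stands for counts after TMM scaling to equal library sizes. Its log2 fold change was -2.09 ± 0.38 (SE), with an adjusted p of 0.0536 in edgeR's quasi-likelihood test. A trend with gene length separated the groups. It was measured on log2 CPM minus each gene's own mean over the 6 libraries, so that slopes are relative between libraries. Over 13682 nuclear genes, this centred log2 CPM changed with each doubling of gene length by 0.146, 0.159 and 0.160 in atrx-1 libraries 1, 2 and 3. In wild-type libraries 1, 2 and 3 it changed by -0.233, -0.0636 and -0.168. The 10 aquaporin genes are short, at 1059 to 1326 nt. Values with this trend removed are therefore given beside their fold changes, and beside some of the other results.

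Aquaporin genes were abundantly transcribed in these seedlings. Together the 10 genes took 0.773% ± 0.0397 of the nuclear counts in atrx-1 and 0.724% ± 0.148 in wild type (SD, n = 3 each), and wild-type library 1 had the lowest share of all, 0.553%. All 10 passed the filter on low counts, with between 59 counts (PIP2;2 in wild-type library 2) and 10426 counts (PIP1;2 in atrx-1 library 1). By mean level per kb of gene length over the 6 libraries, the most abundant member ranked 54th among 13682 nuclear genes, the next 3 ranked 67th, 106th and 113th, and the least abundant ranked 734th.

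**Figure D1:**
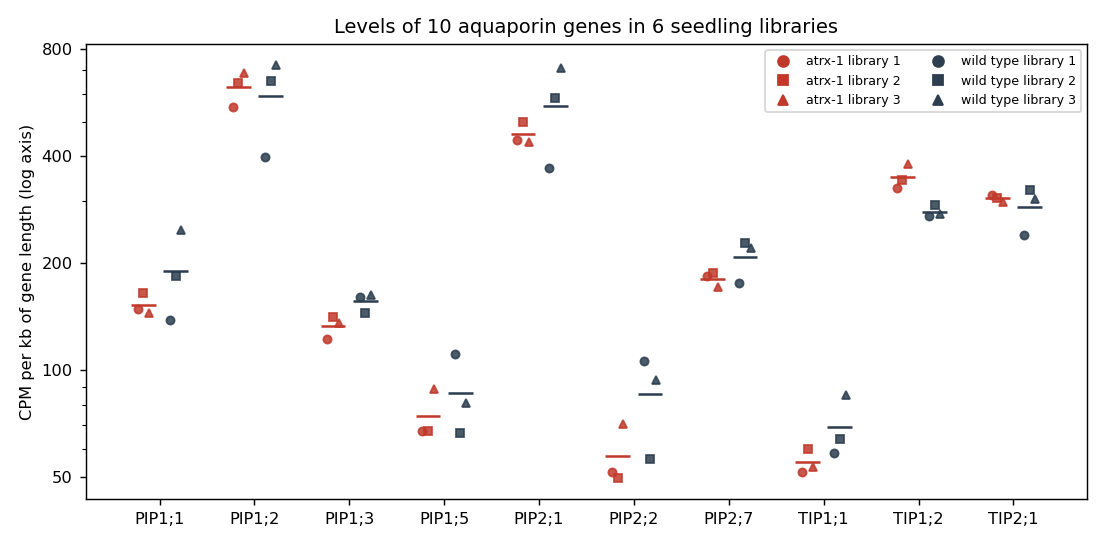
Level of each aquaporin gene in CPM per kb of gene length (log axis) in the 3 atrx-1 libraries (red, left of each pair) and the 3 wild-type libraries (dark, right). Symbols mark library numbers and horizontal lines the group means. PIP1;2 has the highest mean in both genotypes, the ranges of the groups do not touch for 2 genes, and the coefficient of variation is larger in wild type for 8 genes.

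Per kb of gene length, PIP1;2 led in both genotypes, with 626 ± 68.9 CPM per kb in atrx-1 and 591 ± 172 CPM per kb in wild type (SD, n = 3 each). PIP2;1 followed with 461 ± 32.6 CPM per kb in atrx-1 and 554 ± 170.3 CPM per kb in wild type. A PIP1 gene and a PIP2 gene, both of the plasma membrane, thus headed the order. A vacuolar pair came next, TIP1;2 with 349.7 ± 27.7 CPM per kb in atrx-1 and 279 ± 10.5 CPM per kb in wild type, and TIP2;1 with 304 ± 6.91 CPM per kb in atrx-1 and 288 ± 43.0 CPM per kb in wild type. The middle of the order was held by PIP2;7, PIP1;1 and PIP1;3, which had means of 133 to 181 CPM per kb in atrx-1 and 156 to 208 CPM per kb in wild type. PIP1;5, PIP2;2 and TIP1;1 were lowest, at 55.2 to 74.4 CPM per kb in atrx-1 and 69.1 to 86.4 CPM per kb in wild type. The highest mean exceeded the lowest 11.3-fold in atrx-1 and 8.55-fold in wild type.

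In atrx-1 the ranges of neighbours in this order were apart except at both steps among the 3 lowest genes. In wild type the ranges were apart at only 3 steps, those below the leading plasma membrane pair, below the vacuolar pair and above the 3 lowest genes. The order of group means differed between genotypes in 1 place, within the vacuolar pair, where the TIP1 gene stood above the TIP2 gene in atrx-1 and below it in wild type, and where the wild-type ranges overlapped.

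Among the PIP2 genes, PIP2;1 (AT3G53420, chr3:19803655-19805713 in the TAIR10 coordinates of the table) encodes a water channel known for its regulation by phosphorylation and for a role in guard cells. It had 590.3, 661 and 582 CPM in atrx-1 libraries 1, 2 and 3, against 492, 774 and 938 CPM in wild-type libraries 1, 2 and 3. The mutant values lay inside the wide wild-type range. Its log2 fold change was -0.27 ± 0.25 (SE), with a 95% interval from -0.80 to 0.27 and an edgeR adjusted p of 0.589. Without wild-type library 1 it was -0.49 (adjusted p = 0.120), and without wild-type library 3 it was -0.044. Removing the length trend gave -0.20.

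PIP2;2 (AT2G37170, chr2:15613402-15614857) encodes a channel known for its part in water transport of root cells. It had 59.4, 56.9 and 80.7 CPM in atrx-1 libraries 1, 2 and 3, against 122, 64.5 and 108 CPM in wild-type libraries 1, 2 and 3. Wild-type libraries 1 and 3 were above every mutant library, and wild-type library 2 was not. The log2 fold change of -0.61 ± 0.25 (SE) had the largest size of the 10, with a 95% interval from -1.14 to -0.07, an unadjusted p of 0.0293 and an adjusted p of 0.200 in edgeR. It was -0.46 with the length trend removed and -0.45 without wild-type library 1 (adjusted p = 0.268). Leaving out wild-type library 2 gave -0.84 (adjusted p = 0.0832), the lowest adjusted p of any member under any alternative run.

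PIP2;7 (AT4G35100, chr4:16708552-16710289), whose protein is known to bind the syntaxins SYP121 and SYP61 on its way to the plasma membrane, varied little. Levels were 224, 227 and 208 CPM in atrx-1 libraries 1, 2 and 3, against 213, 278 and 267 CPM in wild-type libraries 1, 2 and 3. Wild-type libraries 2 and 3 were above all mutant libraries and wild-type library 1 was not. A log2 fold change of -0.20 ± 0.20 (SE) was fitted, with an edgeR adjusted p of 0.618. It was -0.085 with the length trend removed and -0.31 without wild-type library 1.

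Of the PIP1 genes, PIP1;2 (AT2G45960, chr2:18910295-18911982) encodes a channel known for a part in root water uptake and in the entry of CO2 into leaf cells. It had 716, 834 and 891 CPM in atrx-1 libraries 1, 2 and 3, against 516, 848 and 939.5 CPM in wild-type libraries 1, 2 and 3. Wild-type library 1 was the lowest of the 6 and wild-type library 3 the highest, with the mutant values between them. The fitted log2 fold change was 0.084 ± 0.25 (SE), with an edgeR adjusted p of 0.895, and turned to -0.13 without wild-type library 1. Leaving out wild-type library 3 gave 0.26, wild-type library 2 gave 0.13, atrx-1 library 1 gave 0.17 and atrx-1 library 3 gave 0.017. Removing the length trend gave 0.16.

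PIP1;1 (AT3G61430, chr3:22733309-22735335), another plasma membrane channel, had 189, 210.2 and 185 CPM in atrx-1 libraries 1, 2 and 3, against 176, 234 and 314 CPM in wild-type libraries 1, 2 and 3. The groups overlapped, with wild-type library 1 below every mutant library. The log2 fold change was -0.31 ± 0.23 (SE), with an edgeR adjusted p of 0.487. It was -0.50 without wild-type library 1 (adjusted p = 0.130) and -0.068 without wild-type library 3. With the length trend removed it was -0.22, and 0.023 without wild-type library 3 as well.

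PIP1;3 (AT1G01620, chr1:225665-227302) had 159, 183 and 176 CPM in atrx-1 libraries 1, 2 and 3, against 208, 188 and 211 CPM in wild-type libraries 1, 2 and 3. Every mutant library was below every wild-type library. The step was small against the error of the fit, the log2 fold change being -0.23 ± 0.19 (SE) and its edgeR adjusted p 0.523. It stayed between -0.31 and -0.17 when each library was left out in turn, and was -0.15 with the length trend removed.

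PIP1;5 (AT4G23400, chr4:12220743-12222371) was the least abundant of the 4 PIP1 genes per kb. It had 76.1, 76.2 and 99.8 CPM in atrx-1 libraries 1, 2 and 3, against 126, 75.4 and 91.5 CPM in wild-type libraries 1, 2 and 3. Only wild-type library 1 stood above the mutant range. The log2 fold change of -0.23 ± 0.23 (SE) had an edgeR adjusted p of 0.606. It was -0.013 without that library, -0.40 when wild-type library 2 was left out, -0.37 when atrx-1 library 3 was left out and -0.079 with the length trend removed.

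Among the vacuolar channels, TIP1;2 (AT3G26520, chr3:9722443-9723815), which is known to pass water and hydrogen peroxide, was the only 1 of the 10 with every mutant library above every wild-type library. It had 391, 412 and 456 CPM in atrx-1 libraries 1, 2 and 3, against 327, 349.7 and 329.7 CPM in wild-type libraries 1, 2 and 3. The 3 wild-type libraries lay close together for this gene. Its log2 fold change was 0.33 ± 0.19 (SE), with an edgeR adjusted p of 0.373, and leaving out each library in turn kept it between 0.26 and 0.38. With the length trend removed it was 0.45 ± 0.19 (SE), with an adjusted p of 0.429.

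TIP2;1 (AT3G16240, chr3:5505404-5507050), a channel that also passes ammonia, had 356, 348 and 341 CPM in atrx-1 libraries 1, 2 and 3, against 274, 368 and 347 CPM in wild-type libraries 1, 2 and 3. The mutant libraries were nearly equal, and wild-type library 1 alone was below all of them. A log2 fold change of 0.082 ± 0.20 (SE) had an edgeR adjusted p of 0.864, and became -0.032 without wild-type library 1. Leaving out wild-type library 2 gave 0.14, wild-type library 3 gave 0.12, and removing the length trend gave 0.22.

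TIP1;1 (AT2G36830, chr2:15445425-15446574), a channel of the large vacuoles of vegetative cells, had 54.8, 63.7 and 56.8 CPM in atrx-1 libraries 1, 2 and 3, against 62.0, 67.7 and 89.9 CPM in wild-type libraries 1, 2 and 3. The ranges overlapped only in that wild-type library 1 was below atrx-1 library 2. Per kb it was far less abundant than the other TIP1 gene, with means of 55.2 ± 4.38 CPM per kb in atrx-1 and 69.1 ± 13.9 CPM per kb in wild type (SD, n = 3 each). Its log2 fold change was -0.33 ± 0.20 (SE), with an edgeR adjusted p of 0.386, and -0.46 without wild-type library 1 (adjusted p = 0.152). It was -0.15 without wild-type library 3, and also -0.15 with the length trend removed.

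**Figure D2:**
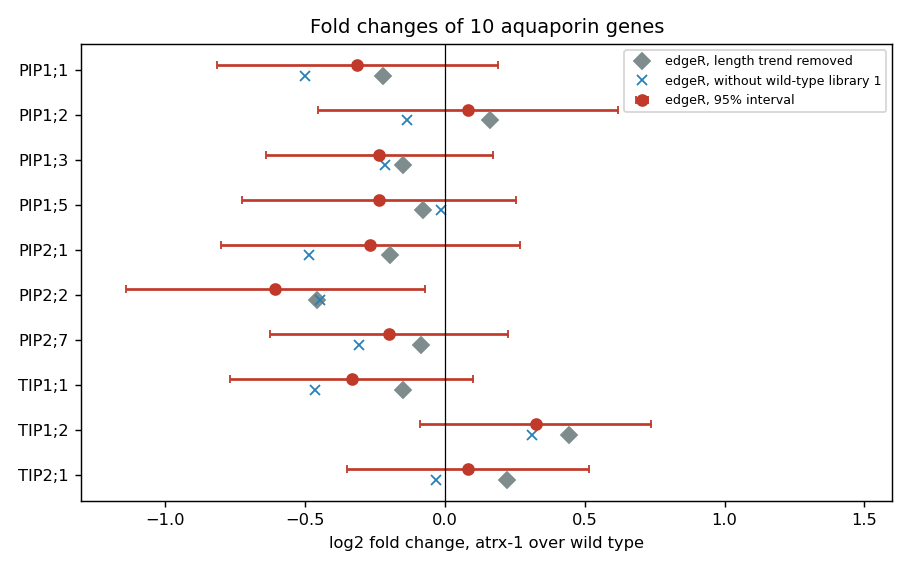
Log2 fold change of each aquaporin gene, atrx-1 over wild type, with the 95% interval of the edgeR fit (red), with the length trend removed (grey diamonds) and without wild-type library 1 (blue crosses). The interval of PIP2;2 alone lies wholly to the left of 0, and 2 genes have their cross on the other side of 0 from their circle.

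None of the 10 aquaporin genes passed the test. In edgeR 0 of 10 had an adjusted p under 0.05, where 0.116% of all 13819 features tested did, and in DESeq2 0 of 10 did, where 2.83% of the 7423 features with an adjusted p did. At an unadjusted p under 0.05 in edgeR there was 1 member, PIP2;2, lower in atrx-1, against 19.5% of all features in either direction and 10.9% in the lower direction. The fold changes were below 0 for 7 genes and above 0 for PIP1;2, TIP1;2 and TIP2;1, whereas 48.8% of all features were below 0. Their median was -0.23, beside 0.012 over all features. Groups did not overlap for 2 members, 1 PIP1 gene below and 1 TIP1 gene above, while they did not overlap for 23.6% of all features, 11.4% below and 12.2% above. Apart from the 1 gene with the unadjusted call, the 95% intervals of the members included 0, and their ends lay between -0.81 and 0.74 on the log2 scale.

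Gene length moved with these values. Over the 13682 nuclear genes, the Spearman correlation between log2 fold change and length was 0.575, a description across genes that share the same 6 libraries. With the trend removed in each library, the median of the 10 genes was -0.12, beside -0.013 over all features, and 7 were still below 0, where 51.5% of all features were. In that fit 0 of all features had an adjusted p under 0.05, 11% had an unadjusted p under 0.05, and among the members TIP1;2 was the only such gene (unadjusted p = 0.0379 in edgeR).

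**Figure D3:**
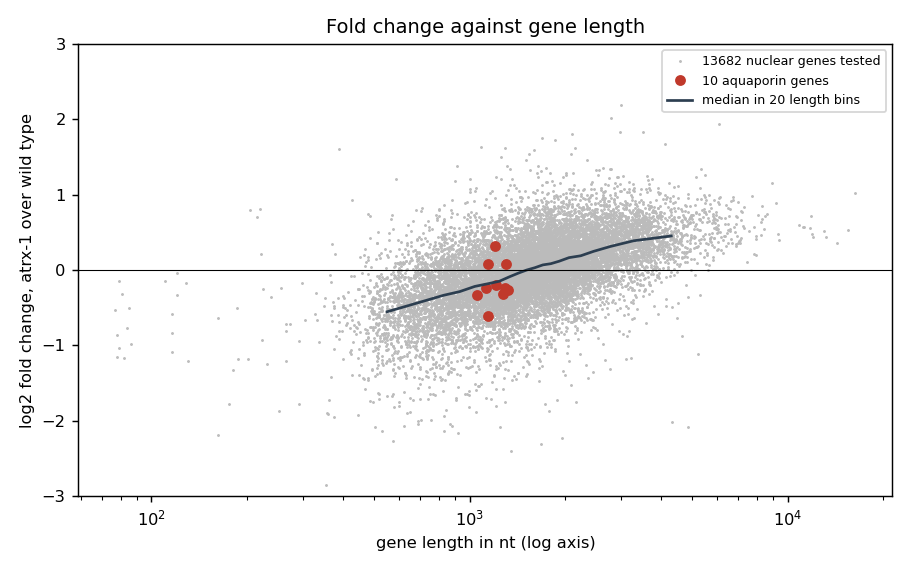
Log2 fold change, atrx-1 over wild type, against gene length in nt (log axis) for 13682 nuclear genes (grey), the median in bins of length (dark line) and the 10 aquaporin genes (red). The dark line climbs with gene length, and 7 of the aquaporin genes are below 0.

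The libraries of the mutant lay closer together than those of the wild type. The coefficient of variation of a member's CPM ran from 2.27% to 19.9% in atrx-1, with a median of 7.59%, and from 3.74% to 30.7% in wild type, with a median of 23.3%. It was larger in wild type for 8 of the 10 genes and for 77.4% of all features tested. Wild-type library 1 was the lowest of the 6 libraries for 5 genes and the highest for PIP1;5 and PIP2;2. Wild-type library 3 was the highest for 5 genes. The members therefore differed from each other in their pattern across the wild-type libraries.

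**Figure D4:**
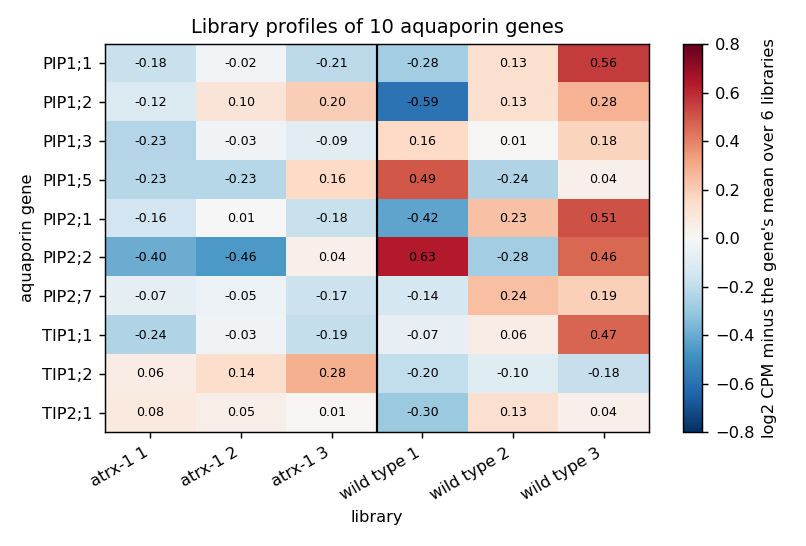
Log2 CPM of each aquaporin gene (rows) in each library (columns, atrx-1 left of the line) minus the gene's mean over the 6 libraries. In wild-type library 1, PIP1;2 is lowest at -0.59 and PIP2;2 is highest at 0.63.

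Wild-type library 1 moved the calls over all features. Without it, edgeR gave an adjusted p under 0.05 to 2.61% of 14487 features, and still to 0 of the 10 genes.

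Summed by subfamily, the mutant and wild-type libraries were apart for the 3 TIP genes among the 10. On its own only TIP1;2 of these was apart. TIP1;1 and TIP2;1 overlapped between groups, with log2 fold changes of -0.33 and 0.082. Every mutant library was above every wild-type library for 12.2% of all features. The 3 TIP genes added up to 802, 824 and 854 CPM in atrx-1 libraries 1, 2 and 3, against 663, 786 and 766 CPM in wild-type libraries 1, 2 and 3. All mutant sums were above all wild-type sums, with means of 827 ± 25.8 CPM in atrx-1 and 738 ± 66.1 CPM in wild type (SD, n = 3 each). PIP1 sums averaged 1264 ± 111 CPM in atrx-1 and 1309 ± 267 CPM in wild type, and PIP2 sums 896 ± 42.0 CPM in atrx-1 and 1085 ± 245 CPM in wild type. Both of these overlapped between groups. All 10 genes together gave 2988 ± 149.5 CPM in atrx-1 and 3133 ± 569 CPM in wild type. The log2 ratio of the TIP sums, atrx-1 over wild type, was 0.16, and 0.092 without wild-type library 1. That of the PIP2 sums was -0.28, and ran from -0.44 without wild-type library 1 to -0.12 without wild-type library 3. With 3 libraries against 3, an exact permutation test cannot give a p under 0.1, and no p is given for sums or shares over these genes.

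The makeup of the 10 genes' transcripts was also expressed as shares of their summed CPM per kb, a measure added after the data had been seen. PIP2 genes made up 30.2%, 29.9% and 27.6% in atrx-1 libraries 1, 2 and 3, against 32.1%, 33.5% and 35.3% in wild-type libraries 1, 2 and 3. Every mutant share was below every wild-type share. TIP genes made up 30.5%, 28.8% and 29.6% in atrx-1 libraries 1, 2 and 3, against 28.1%, 26.1% and 22.8% in wild-type libraries 1, 2 and 3, with every mutant share above. PIP1 genes held 41.2% ± 1.72 in atrx-1 and 40.7% ± 1.08 in wild type (SD, n = 3 each), and their ranges overlapped. Since shares add up to the whole and that of PIP1 was nearly equal, the lower PIP2 and higher TIP shares are not separate results. In CPM the PIP2 sums overlapped between groups, and 23.6% of all features did not overlap. The uncertain split of reads between PIP2;2 and PIP2;3 also enters the PIP2 share. With the length trend removed, the mean PIP2 share was 29.1% in atrx-1 and 33.8% in wild type, and the mean TIP share 29.98% in atrx-1 and 25.4% in wild type, still without overlap.

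**Figure D5:**
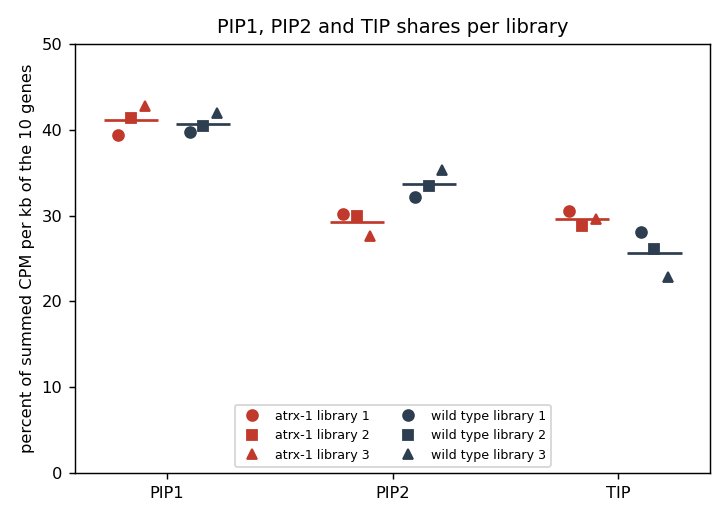
Share of the PIP1, PIP2 and TIP genes in the summed CPM per kb of the 10 aquaporin genes, in percent, for the 3 atrx-1 libraries (red, left) and the 3 wild-type libraries (dark, right), with horizontal lines at the group means. The atrx-1 libraries lie below all wild-type libraries for PIP2 and above them for TIP, and the groups overlap for PIP1. Shares in a library add up to the whole, so those of PIP2 and TIP are not independent.

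Within these shares, TIP1;2 held 14.6% ± 0.736 in atrx-1 and 11.4% ± 1.96 in wild type (SD, n = 3 each), with all mutant libraries above. PIP1;1 held 6.39% ± 0.446 in atrx-1 and 7.48% ± 0.915 in wild type, with all mutant libraries below. TIP1;1 held 2.30% ± 0.137 in atrx-1 and 2.76% ± 0.255 in wild type, also with all mutant libraries below, but its groups overlapped once the length trend was removed. The shares of the other 7 genes overlapped between groups. Shares in a library add up to the whole, so a rise in a gene lowers the others, and these comparisons are not independent. In CPM, PIP1;1 and TIP1;1 overlapped between groups, and 23.6% of all features did not.

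The authors' deposited table gave its own fold changes, atrx-1 over wild type, for the same genes. There, in the authors' deposited table, 2 of the 10 had an adjusted p under 0.05, both lower in atrx-1, beside 7.06% of the 6995 features with an adjusted p in either direction and 4% in the lower direction. They were PIP2;1 at a log2 fold change of -0.46 (adjusted p = 0.0381) and PIP1;1 at -0.48 (adjusted p = 0.0438) in the authors' deposited table. The other 8 genes lay between -0.41 and 0.30 in the authors' deposited table, the ends being the 2 TIP1 genes. Over 1143 features with at least 50 CPM, the authors' deposited fold changes differed from those of edgeR by a median of 0.131 with all 6 libraries and by a median of 0.0201 without wild-type library 1. The largest difference for a member was 0.215 with all 6 libraries and 0.0544 without that library. Fits that left out any other library, or changed the normalization, the filter or the tool, differed from the authors' deposited fold changes by medians of 0.118 to 0.209.

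The rest of the aquaporin family comprises the other PIP and TIP genes, the NIP channels, some of which carry boric acid, and the small SIP channels of the endoplasmic reticulum. Of 25 such genes listed, 23 were in the table and 16 passed the filter on low counts. None of the 16 had an adjusted p under 0.05 in edgeR or DESeq2. In edgeR 3 were above 0 and 13 below 0, and the median log2 fold change was -0.47, or -0.37 with the length trend removed. At an unadjusted p under 0.05 in edgeR there were 5, all lower in atrx-1, beside 10.9% of all features in that direction. They were PIP2;8, NIP1;1 and 3 TIP genes described next. With the length trend removed 2 were lower and 1, PIP2;6, was higher, beside 11% of all features in either direction. In DESeq2, 2 of 22 were lower and 0 higher, beside 1085 of 23038 features lower.

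The 3 most abundant of these genes per kb were PIP2;6, TIP2;2 and PIP1;4. PIP2;6, a plasma membrane channel, averaged 103 ± 7.67 CPM in atrx-1 and 70.9 ± 30.3 CPM in wild type (SD, n = 3 each), a log2 fold change of 0.51 ± 0.26 (SE) with an edgeR adjusted p of 0.314. With the length trend removed it was 0.61, with an edgeR adjusted p of 0.422. The vacuolar TIP2 gene averaged 44.8 ± 6.77 CPM in atrx-1 and 66.6 ± 19.0 CPM in wild type, a log2 fold change of -0.57 ± 0.24 (SE) with an edgeR adjusted p of 0.210, which was -0.35 with the length trend removed. The PIP1 gene had nearly equal means of 106 ± 4.21 CPM in atrx-1 and 98.2 ± 24.7 CPM in wild type. For each of these 3 the wild-type spread was the larger.

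TIP3;1, the vacuolar channel of seed storage tissue, was rare in these seedlings, with 33, 7 and 6 counts in atrx-1 libraries 1, 2 and 3, against 25, 4 and 14 counts in wild-type libraries 1, 2 and 3. Scaled for depth, it averaged 1.95 ± 0.294 CPM in atrx-1 and 5.49 ± 1.77 CPM in wild type (SD, n = 3 each), with every mutant library below. Its log2 fold change was -1.49 ± 0.35 (SE), with an edgeR adjusted p of 0.0709. With the length trend removed it was -1.35, with an edgeR adjusted p of 0.271. TIP2;3, a vacuolar channel that also passes ammonia, averaged 4.21 ± 0.944 CPM in atrx-1 and 7.27 ± 1.83 CPM in wild type, again without overlap, a log2 fold change of -0.88 ± 0.30 (SE) with an edgeR adjusted p of 0.134. With the length trend removed its fold change was -0.69.

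Leaving out wild-type library 1 gave 3 calls in this list, in a fit that called 2.61% of 14487 features. With the length trend removed as well, 0 genes of the list were called. In the fit without that library and with the trend kept, PIP2;6 was higher in atrx-1 (log2 fold change 0.86 ± 0.20 SE, edgeR adjusted p = 0.0401), and the authors' deposited table has 0.75 for it. TIP2;2 was lower in atrx-1 (-0.81 ± 0.18 SE, edgeR adjusted p = 0.0353), and the authors' deposited table has -0.72. PIP2;3, named after its values had been seen, was lower in atrx-1 (-0.94 ± 0.19 SE, edgeR adjusted p = 0.0299), and the authors' deposited table has -0.81. All 3 have an adjusted p under 0.05 in the authors' deposited table, where only 5 genes of this list have an adjusted p. The share there over all features with an adjusted p is 7.06%. The authors' values come from the same data and differ from this fit by a median of 0.0201 over features with at least 50 CPM. They are therefore not independent of it. Over all libraries PIP2;3 averaged 12.5 ± 1.05 CPM in atrx-1 and 19.8 ± 8.58 CPM in wild type (SD, n = 3 each). The uncertain split of reads with its near-identical relative PIP2;2 applies to these values too.

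Aquaporin activity also depends on proteins that carry PIP channels through the cell or modify them. Of 10 such partner genes, 9 passed the filter, 4 above and 5 below 0, with a median log2 fold change of -0.0087. With the length trend removed 2 were above and 7 below 0, and the median was -0.20. None had an adjusted p under 0.05 in edgeR or DESeq2. An unadjusted p under 0.05 in edgeR was reached by 1, beside 19.5% of all features in either direction. That gene, VAMP721, encodes a vesicle SNARE of the secretory pathway. It averaged 27.5 ± 3.49 CPM in atrx-1 and 40.1 ± 1.43 CPM in wild type (SD, n = 3 each), with every mutant library below. Its log2 fold change was -0.55 ± 0.18 (SE), with an edgeR adjusted p of 0.125. With the length trend removed it was -0.37, with an unadjusted p of 0.0598 in edgeR. The syntaxin gene SYP121 averaged 5.58 ± 0.6 CPM in atrx-1 and 7.85 ± 2.86 CPM in wild type. The clathrin heavy chain gene CHC2, needed for endocytosis, averaged 111 ± 3.66 CPM in atrx-1 and 87.2 ± 8.73 CPM in wild type, and its log2 fold change of 0.35 turned to -0.18 with the length trend removed. AP2M, the medium subunit of the endocytic adaptor AP2, had a log2 fold change of -0.0087.

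Proton pumps energise the same membranes in which PIP and TIP channels lie. All 5 listed pump genes passed the filter, 4 above and 1 below 0, with a median log2 fold change of 0.23. With the length trend removed 2 were above and 3 below 0, and the median was -0.041. None had an adjusted p under 0.05 in edgeR or DESeq2. An unadjusted p under 0.05 in edgeR was reached by 1, beside 19.5% of all features in either direction. That gene, AHA1, encodes a plasma membrane proton ATPase and averaged 227 ± 13.2 CPM in atrx-1 and 171 ± 7.48 CPM in wild type (SD, n = 3 each), a log2 fold change of 0.41 ± 0.19 (SE) with an edgeR adjusted p of 0.252, which was 0.039 with the length trend removed. On the vacuolar side, VHA-A3, a membrane subunit of the proton ATPase, averaged 73.2 ± 4.31 CPM in atrx-1 and 56.1 ± 2.75 CPM in wild type, and its log2 fold change of 0.38 was 0.068 with the length trend removed. VHA-A, the catalytic subunit of that enzyme, averaged 178 ± 10.4 CPM in atrx-1 and 161 ± 20.3 CPM in wild type, and its log2 fold change of 0.15 was -0.088 with the trend removed. VHP1, the proton-pumping pyrophosphatase of the vacuole, averaged 186 ± 14.6 CPM in atrx-1 and 159 ± 31.5 CPM in wild type, and its log2 fold change of 0.23 was likewise -0.041. AHA2, the other plasma membrane pump, was named after its values had been seen. It averaged 111 ± 3.58 CPM in atrx-1 and 128 ± 43.4 CPM in wild type. Its log2 fold change of -0.22 was -0.58 with the trend removed, with an edgeR adjusted p of 0.421. In that fit it was the only pump gene with an unadjusted p under 0.05 in edgeR, at 0.0336, beside 11% of all features.

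Both leaf and root transcripts were present, as the seedling label says. The 11 root markers summed to 1121 to 1381 CPM in atrx-1 and 1292 to 1889 CPM in wild type, overlapping ranges that were mostly PYK10. Their 7 tested members had a median log2 fold change of -0.55, with 6 below 0 and none past the adjusted threshold in edgeR. There 3 had an unadjusted p under 0.05, all lower in atrx-1, beside 10.9% of all features. With the length trend removed 7 were below 0 and the median was -0.54. In that fit 2 had an unadjusted p under 0.05 in edgeR, beside 11% of all features in either direction. Of the 11, 3 had every mutant library below every wild-type library and 1 had every mutant library above, beside 11.4% and 12.2% of all features. Of those below, EXPA7 and CASP1 had only 4 to 22 counts per wild-type library. NRT2.1 had 0 counts in every library. The 9 leaf markers summed to 22998 to 23954 CPM in atrx-1 and 16259 to 26898 CPM in wild type, with the lowest sum in wild-type library 1, and 7 of the 9 were above 0 (median log2 fold change 0.11). With the length trend removed 8 of the 9 were above 0, and the median was 0.29. Of the 9, 2 had every mutant library above every wild-type library and 0 had every mutant library below, beside 12.2% and 11.4% of all features. An unadjusted p under 0.05 in edgeR was reached by 1, beside 19.5% of all features in either direction. In such bulk RNA, fewer cells of a type and less RNA per cell cannot be told apart, and the part of root and leaf RNA in the aquaporin values was not tested.

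Outside the family, the 5 genes whose profile over the 6 libraries was most like the mean profile of the 10 members were chosen by the root mean square difference of log2 CPM, each centred on its own mean, among 1235 features with at least 50 CPM. PSBP-1, which encodes an extrinsic protein of photosystem II, was nearest at 0.0413. PMP (AT3G24160) followed at 0.0529, AXS2, a UDP-apiose and UDP-xylose synthase gene, at 0.0683, CLP2, a gene of the plastid Clp protease, at 0.0699, and EMB3010, a ribosomal protein gene, at 0.0720. The members themselves lay 0.108 (PIP1;3) to 0.380 (PIP2;2) from their mean profile. Likeness to that mean is therefore not likeness to any single member.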

How the data were processed

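Ribosomal RNA-depleted total RNA of 6 seedling libraries had been sequenced, 3 per genotype, grouped by the genotype in the labels. The submitters' processing notes name HTSeq 0.6.1, TopHat2 2.0.14 and Bowtie2 2.1.0, besides CASAVA 1.8.2, DESeq and DESeq2 1.6.3, and the build TAIR10, with no roles. Per the file headers, the authors deposited raw read counts per gene, which were tested here. A normalized signal for each library, and that signal per kb, were also deposited, and their ratio gave the gene length used here. The log2 fold changes and p-values that the authors deposited were taken as they stand.

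Counts were tested with edgeR 4.0.16 in R 4.3.3 (TMM, filterByExpr with a minimum count of 10 and total of 15, glmQLFit and glmQLFTest, genotype only), with Benjamini-Hochberg adjustment over 13819 features at 0.05, and 9821 features were filtered out. The length trend was a lowess (span 0.5) of log2 CPM, centred on each gene's mean, on log2 length over nuclear genes, used as an offset. The closest 2 libraries had a Spearman correlation of 0.979 and were not copies. Alternatives were DESeq2 1.42.0, RLE scaling, nuclear genes only, no filter, a stricter filter, the length offset, a replicate block and leaving out each library. Sequences, exons and coding identity came from RefSeq TAIR10.1. Genes named outside the 10 were, in each list, those called, the 3 highest per length and the 2 with the smallest p, and the 5 nearest profiles. PIP2;8, NIP1;1 and the marker genes were named with their values in view. The members and lists were chosen with earlier results of these data known.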

Additional observations from a re-analysis of the deposited data

How the results depend on the processing

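No member passed the adjusted threshold under any of 20 alternatives, and 193 of 200 member values kept direction and side of the threshold. The other 7 reversed. When each library was left out in turn, PIP1;2 ran from -0.13 to 0.26 and TIP2;1 from -0.032 to 0.14, both ends below 0 coming without wild-type library 1. With the length trend also removed, they were PIP1;2 (-0.062) and PIP1;5 (0.13) without wild-type library 1, and PIP1;1 (0.023), PIP2;1 (0.022) and TIP1;1 (0.040) without wild-type library 3. The cause was not tested. The members' median ran from -0.28 to -0.11 when each library was left out, and from -0.17 to 0.022 with the trend removed. Calls over all features were 16 in the fit reported, 210 in DESeq2, 38 with RLE scaling, 592 with no low-count filter, 0 with the length trend removed, 0 to 378 when each library was left out and 0 to 24 when this was done with the trend removed. Calls among the other aquaporins were 1 with no filter (TIP3;1) and 0 to 3 when each library was left out. They were 0 throughout when this was done with the trend removed. The log2 ratio of the TIP sum was 0.16, and 0.30 with the trend removed or 0.36 in CPM without TMM, where that of all 10 was 0.14 instead of -0.068. For the PIP2 sum it was -0.28, -0.19 with the trend removed and -0.065 in CPM without TMM. For the PIP1 sum it was -0.050, 0.036 with the trend removed and 0.16 in CPM without TMM. When each library was left out in turn, the ratio ran from 0.092 to 0.21 for TIP, from -0.44 to -0.12 for PIP2, from -0.20 to 0.093 for PIP1 and from -0.20 to 0.052 for all 10.

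Whether the replicate numbers pair the libraries is not known. After each gene's group mean was taken off, same-numbered libraries had correlations of 0.064, 0.057 and -0.079. Those with different numbers had -0.13 to 0.088. With 3 libraries per group these values cannot decide the question. With the replicate number as a block there were 34 calls, and 1 with the length trend removed as well, none of them a member. Depth was least in wild-type library 2.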
